A study of Mus musculus with 6 samples.

Results

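Rps27l and other target genes of the tumour suppressor p53 were examined in the olfactory epithelium of C57Bl/6 mice after closure of a single nostril. The list named 10 genes, and the 8 that a probe set with exactly 1 gene symbol represented were analysed, of 14860 genes represented in that way. These were Rps27l, Cdkn1a, Mdm2, Ccng1, Bbc3, Trp53inp1, Phlda3 and Zmat3, each with 1 probe set. Trp53, which encodes p53 itself, and Bax were not analysed here. Rps27l was selected on its difference in log2 level between the sides of these same arrays, so its values are given as a description without a test. The other genes are well-known members of the pathway and were set beside it.

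Total RNA of the epithelium was hybridised to 6 exon arrays, 3 from the side ipsilateral to unilateral naris occlusion (the occluded side) and 3 from the contralateral, open side, labelled control, at 5 days after the operation in 3 mice. Both sides came from operated animals of the same strain, and odour stimulation was lowered beside the closed nostril and, according to the labels, raised beside the open one, so the contralateral epithelium is not an unmanipulated one. The labels give no sex or age and do not tie the arrays of the sides to a mouse, so the p-values rest on array-to-array spread alone. Levels are the log2 values made by the authors with RMA, a method that corrects background, normalizes between arrays and summarises the probes of a gene. Probes differ in brightness, so levels are compared between arrays for 1 gene and not between genes, other than to say where a probe set lies among all probe sets.

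The protein p53 is a transcription factor that accumulates after DNA damage and other stresses. It binds DNA elements built from consensus decamers and raises genes that stop the cell cycle, such as Cdkn1a, that promote cell death, such as Bbc3, and that end its own activity, above all Mdm2, a ubiquitin ligase that marks p53 for degradation. Rps27l encodes a protein very similar to the ribosomal protein encoded by Rps27, and in human cells p53 binds the first intron of RPS27L and raises its expression. The olfactory epithelium loses and replaces its sensory neurons throughout life, with cell division in the basal layer and death among neurons.

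Promoter sequences of the gene that stood apart on these arrays and of the best known p53 target are shown so that the elements in question can be seen. They are from RefSeq on GRCm38.p6, both on the plus strand. The window of Cdkn1a, chr17:29090729-29090978, covers the 250 bases before the first of 2 annotated starts. Capitals mark a match to ACATGTNNNNACATGT, the form of the tandem p53 element known from the human CDKN1A promoter. That window also held 2 consensus decamers, GGACTAGCTT and GAACATGTCT, which are not marked as such. The first Rps27l window, chr9:66945836-66946085, also covers 250 bases before a start and held no p53 consensus decamer. The other Rps27l stretch, chr9:66946203-66946315, lies downstream of that start and before another annotated start, and its capitals mark the 2 consensus decamers at its ends. This stretch is 113 bases long, so its decamers are not adjacent and do not form a tandem match like that of Cdkn1a.
Cdkn1a, before the first start: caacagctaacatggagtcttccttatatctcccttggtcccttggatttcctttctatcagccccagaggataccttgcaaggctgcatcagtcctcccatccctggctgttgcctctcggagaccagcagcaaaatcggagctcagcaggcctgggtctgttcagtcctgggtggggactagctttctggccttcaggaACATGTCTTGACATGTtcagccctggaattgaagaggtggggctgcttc
Rps27l, before the first start: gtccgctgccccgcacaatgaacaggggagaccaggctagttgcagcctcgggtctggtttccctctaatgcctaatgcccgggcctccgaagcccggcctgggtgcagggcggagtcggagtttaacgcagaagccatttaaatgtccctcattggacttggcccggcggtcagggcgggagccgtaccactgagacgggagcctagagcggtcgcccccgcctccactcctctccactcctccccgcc
Rps27l, between the decamers: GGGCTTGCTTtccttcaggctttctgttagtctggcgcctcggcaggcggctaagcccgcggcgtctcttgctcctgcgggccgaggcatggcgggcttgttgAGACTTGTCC

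The p53 consensus decamer, which reads the same on both strands, was searched in windows of 300 bases, 250 before and 50 after each annotated start. The 12 windows searched belong to 8 of the 10 proposed genes, and Zmat3 and Trp53inp1 were not searched. The decamer was present in 6 of the 12 windows, in Bax, Rps27l, Mdm2, Ccng1, Trp53 and Cdkn1a, against 8.36% of all 32851 windows. The window before the other Cdkn1a start, chr17:29093519-29093768, held no decamer and no match to the spelled core. The spelled core ACATGTNNNNACATGT was found for the first window of Cdkn1a and in 4 windows (0.0122%) altogether. It overlaps a decamer in the first Cdkn1a window and was chosen for the search with that window in view. Windows of 1 gene can overlap, matches are descriptions of letters and not of binding, and the genes were listed because p53 is known to act on them.

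Rps27l was higher on the occluded side. Its log2 level was 9.36, 9.21 and 8.98 on the occluded arrays, against 8.21, 8.47 and 8.59 on the contralateral arrays. The lowest occluded array lay above the highest contralateral array by 0.39, so the sides did not overlap. Occluded arrays averaged 9.18 ± 0.19 and contralateral arrays 8.42 ± 0.19 (SD, n = 3 each), a log2 difference of 0.76 (SE 0.14) or 1.69-fold. Ordered by difference, Rps27l was number 138 of 23332 probe sets from the top. Without occluded replicate 1, which stood apart from the other arrays, the log2 difference was 0.67 (SE 0.14). In whole tissue, more cells of a type and more RNA per cell cannot be told apart.

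**Figure D1:**
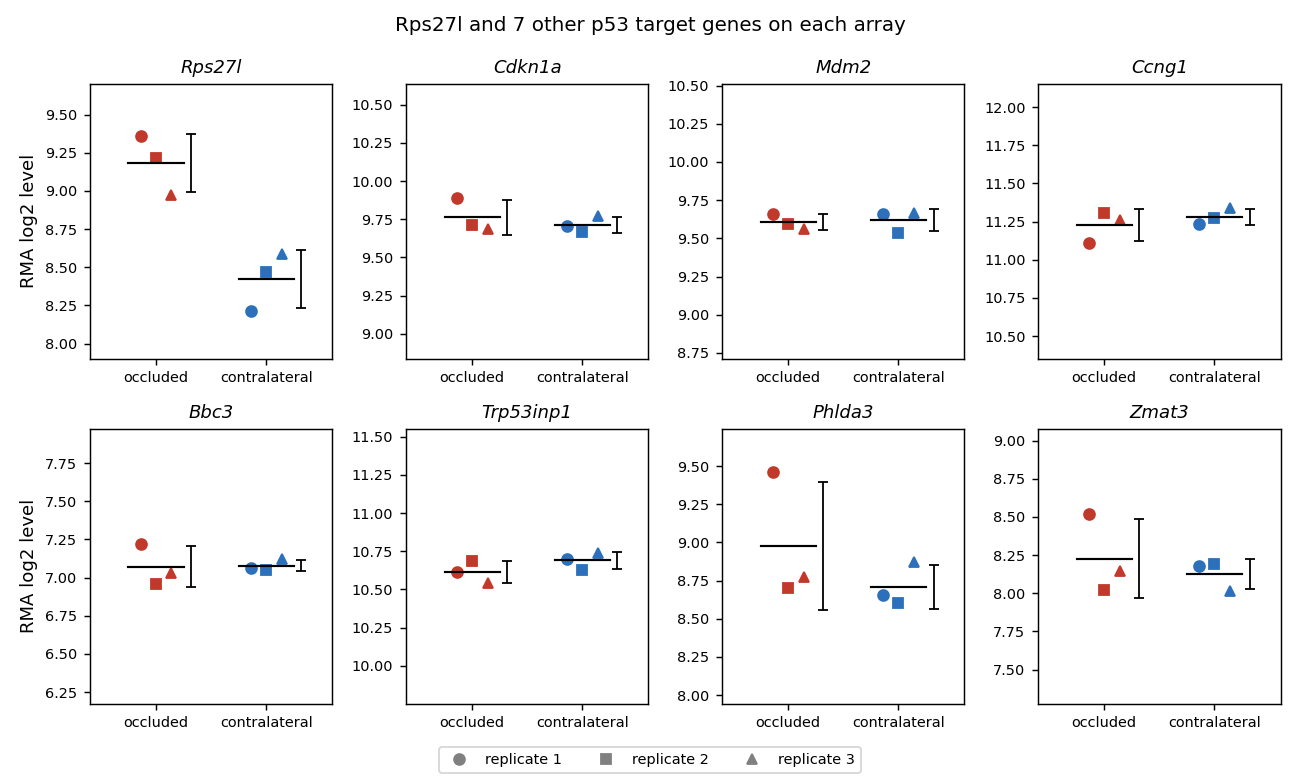
RMA log2 level of each gene on each array, with the occluded side (red) left of the contralateral side (blue), symbols for replicate numbers, lines for means and bars for 1 SD (n = 3). Every panel spans the same number of log2 units, and only for Rps27l do the sides separate, at 8.98 and above on the occluded side and 8.59 and below on the contralateral side.

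None of the 7 other p53 targets passed the test. After Benjamini-Hochberg adjustment across the whole table limma called 0 of 7, where 0% of the 23332 probe sets were called, and at an unadjusted p under 0.05 there were also 0 of 7, against 5.28% of all probe sets. Their sides overlapped in 7 of 7 genes, while the sides did not overlap in 10.7% of all probe sets. Of the 7 log2 differences 3 were above 0 and 4 below, and their median was -0.0072, beside 0.06 over all probe sets and 0.76 for Rps27l. The largest was 0.27, for Phlda3.

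The genes of cell cycle arrest and of p53 feedback were close to level between the sides. Cdkn1a encodes p21, the inhibitor of cyclin-dependent kinases through which p53 stops division. Its log2 level was 9.89, 9.71 and 9.68 on the occluded arrays, against 9.71, 9.66 and 9.77 on the contralateral arrays. Occluded replicate 1 was the highest of the 6 and the remaining occluded arrays lay within the contralateral range. The log2 difference was 0.05 (SE 0.10), with a 95% interval of -0.18 to 0.28 and an adjusted p of 0.906, and it was -0.02 without occluded replicate 1 and -0.03 under each of 3 other scalings. The sides of Cdkn1a, whose first window holds the tandem element shown above, differed by less than the SD of the occluded arrays, 0.11.

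Mdm2 had log2 levels of 9.66, 9.60 and 9.56 on the occluded arrays, against 9.66, 9.54 and 9.66 on the contralateral arrays. Its 6 values lay closer together than those of Rps27l on either side alone, and its log2 difference was -0.01 (SE 0.09), with a 95% interval of -0.22 to 0.19 and an adjusted p of 0.975. Ccng1 encodes cyclin G1, a p53 target that recruits a phosphatase to Mdm2. Its log2 level was 11.11, 11.31 and 11.26 on the occluded arrays, against 11.23, 11.27 and 11.34 on the contralateral arrays. Here occluded replicate 1 was the lowest of the 6, and the log2 difference was -0.05 (SE 0.09), with an interval of -0.28 to 0.17 and an adjusted p of 0.895. Without that array the difference of Ccng1 was 0.0039.

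The genes of cell death also overlapped between the sides. Bbc3 encodes PUMA, a protein that triggers apoptosis by binding survival proteins of the Bcl2 family. Its log2 level was 7.22, 6.96 and 7.03 on the occluded arrays, against 7.07, 7.05 and 7.12 on the contralateral arrays. The occluded arrays lay on both sides of the contralateral ones, and the log2 difference was -0.0072 (SE 0.10), with an interval of -0.24 to 0.23 and an adjusted p of 0.990. Trp53inp1, a nuclear protein that promotes p53-dependent death and autophagy, had log2 levels of 10.61, 10.69 and 10.54 on the occluded arrays, against 10.70, 10.63 and 10.74 on the contralateral arrays. Its log2 difference was -0.08 (SE 0.09), with an interval of -0.28 to 0.13 and an adjusted p of 0.854, and the difference stayed below 0 in all 16 alternatives.

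Phlda3 and Zmat3 were high on a single occluded array. Phlda3, a pleckstrin homology protein that restrains the kinase Akt, had log2 levels of 9.46, 8.70 and 8.78 on the occluded arrays, against 8.66, 8.60 and 8.87 on the contralateral arrays. Occluded replicate 1 exceeded the mean of the other occluded arrays by 0.72, and those lay within the contralateral range. The log2 difference was 0.27 (SE 0.21), with an interval of -0.24 to 0.77 and an adjusted p of 0.823, and it was 0.03 (SE 0.11) without occluded replicate 1. Zmat3, a zinc finger protein that binds RNA, had log2 levels of 8.52, 8.02 and 8.14 on the occluded arrays, against 8.18, 8.19 and 8.01 on the contralateral arrays. Occluded replicate 1 was again the highest, by 0.43 over the mean of the other occluded arrays. The log2 difference of Zmat3 was 0.10 (SE 0.15), with an interval of -0.25 to 0.44 and an adjusted p of 0.879, and it was -0.05 without that array.

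**Figure D2:**
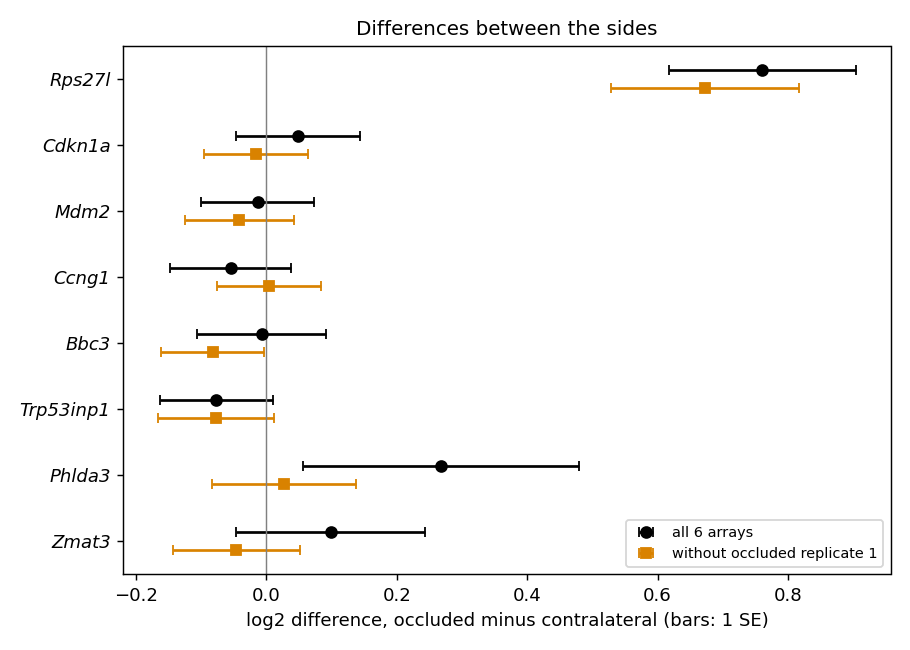
Log2 difference, occluded minus contralateral, of the 8 genes with all 6 arrays (circles) and without occluded replicate 1 (squares), with bars of 1 SE. Rps27l stays at 0.67 without that array, while Phlda3 moves to 0.03 and the remaining genes lie near 0.

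Occluded replicate 1 stood apart from the other arrays over all probe sets, with correlations of 0.977 to 0.983 to them, against 0.986 to 0.989 among the rest, and array medians ran from 7.94 to 8.12. For the tissue label, 9 measured markers of mature olfactory neurons averaged 11.67 to 11.81 on the occluded arrays and 11.57 to 11.66 on the contralateral arrays, above the 75th percentile of all probe sets, 9.26. In difference 8 of the 9 were above 0 and Slc17a6, the glutamate transporter of these neurons, was at -0.52 (SE 0.09). On occluded replicate 1 the 11 measured macrophage and monocyte markers averaged 9.08, against 8.50 to 8.54 on the other occluded arrays and 8.22 to 8.49 on the contralateral arrays. The 10 measured markers of proliferating and basal cells averaged 9.56 there, against 9.19 to 9.32 on the other occluded arrays and 9.23 to 9.35 on the contralateral arrays. The 11 measured connective tissue and bone markers averaged 12.01 to 12.35 on the occluded arrays and 11.80 to 12.02 on the contralateral arrays, with 11 of 11 above 0 in difference and the highest value again on occluded replicate 1. Of the 9 measured immature olfactory neuron markers 0 were above 0 in difference, and of the 9 measured sustentacular cell markers 4 were. Mean levels of the neutrophil and erythroid markers separated the sides, as did those of the mature neuron and the macrophage and monocyte markers. For mature neurons the lowest occluded mean was 11.668 and the highest contralateral mean 11.664. For macrophages and monocytes these were 8.504 and 8.493. The 9 measured neutrophil markers, 7 of them above 0 in difference, averaged 7.13 to 7.36 on the occluded arrays and 6.93 to 7.06 on the contralateral arrays. The 4 measured erythroid markers, all above 0, averaged 7.37 to 7.94 on the occluded arrays and 7.09 to 7.34 on the contralateral arrays. In each single erythroid gene the sides overlapped. Among the occluded arrays the neutrophil and erythroid lists were lowest on replicate 1, where Rps27l was highest. In replicate order, connective tissue and bone markers averaged 12.35, 12.19 and 12.01 on these arrays. Macrophage and monocyte markers averaged 9.08, 8.54 and 8.50, so on the occluded arrays both of these lists fell in the order of Rps27l. On the contralateral arrays, where Rps27l rose with replicate number, neither list kept its order. There connective tissue and bone markers averaged 11.85, 11.80 and 12.02, and macrophage and monocyte markers 8.43, 8.22 and 8.49. The part of these cell types in the values of Phlda3, Zmat3 and Rps27l was not tested.

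The profile of Rps27l over the arrays differed in size and shape from those of the other targets. With each gene centred on its own mean over the 6 arrays, Rps27l was at 0.56, 0.41 and 0.17 on the occluded arrays, against -0.59, -0.33 and -0.22 on the contralateral arrays. The mean of the 7 other genes, centred in the same way, was 0.16, -0.05 and -0.05 on the occluded arrays, against -0.02, -0.06 and 0.02 on the contralateral arrays. That mean was positive mainly on occluded replicate 1, where the median of all probe sets was also highest, at 0.10. Rps27l minus that mean was 0.40, 0.46 and 0.22 on the occluded arrays, against -0.57, -0.27 and -0.24 on the contralateral arrays. Because Rps27l was selected on its difference between the sides, this separation was given in advance and is a description only.

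The likeness of each profile to that of Rps27l was measured as the root mean square of the difference between centred values over the 6 arrays, in log2 units, among 12127 genes above the lowest 25% of levels. The median gene was at 0.38. Phlda3 was the closest of the 7 targets, at 0.32 and rank 1714, followed by Cdkn1a at 0.38 and rank 5811. Ccng1 was the farthest, at 0.44 and rank 10343. The measure takes in the size of the change as well as its shape, so a close profile needs a side difference near that of Rps27l.

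The 6 closest genes were Olfr118, Mepe, Enpp6, Wif1, Olfr1387 and Cck, at 0.11 to 0.14, and no p53 target of the lists was among them. The measure favours a side difference near that of Rps27l, and the largest among those targets was 0.45. Their absence therefore adds nothing to the differences themselves. Mepe, a protein of bone and tooth matrix, had a log2 difference of 0.56 (SE 0.16), and Wif1, a secreted inhibitor of Wnt signals, had one of 0.63 (SE 0.20). Wif1 had log2 levels of 10.95, 10.54 and 10.18 on the occluded arrays, against 9.74, 9.94 and 10.08 on the contralateral arrays. Cck, the neuropeptide cholecystokinin, was at 7.63, 7.55 and 7.48 on the occluded arrays, against 6.88, 7.02 and 7.13 on the contralateral arrays. Enpp6, a choline-releasing phosphodiesterase, had a log2 difference of 0.59 (SE 0.18), and the odorant receptors Olfr118 and Olfr1387 had differences of 0.55 and 0.67. Receptor genes of nearly the same sequence may share probes, which makes those last values uncertain. These genes were picked for resembling Rps27l, so their differences have no test.

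**Figure D3:**
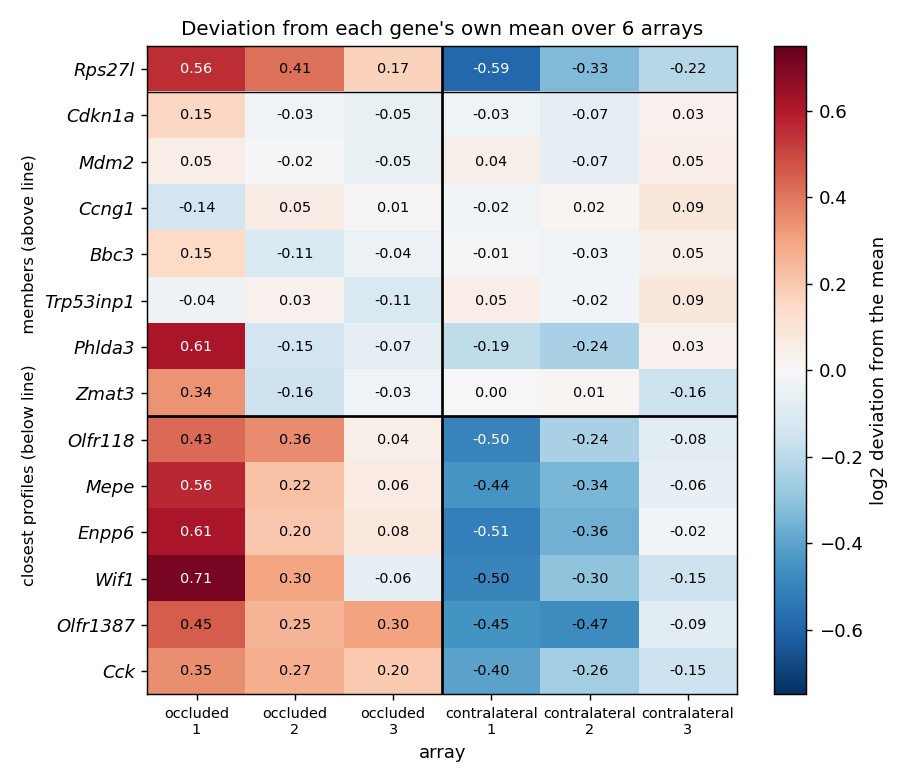
Log2 deviation of each gene from its own mean on each of the 6 arrays, occluded arrays left, with Rps27l on top, the 7 other p53 targets beneath it and the 6 closest profiles under the thick line. Rps27l runs from 0.56 to 0.17 across the occluded columns and from -0.59 to -0.22 across the contralateral ones, a pattern not seen in the rows of the other targets.

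A wider set of 54 genes described as p53 targets gave 46 with a probe set, covering arrest, cell death, DNA repair and metabolism. None passed limma over all probe sets, where 0% were called. An unadjusted limma p under 0.05 was reached by 2 of the 46, both higher, against 5.28% of all probe sets. In difference 36 of 46 lay above 0 (78.3%), against 70.5% of all genes with 1 symbol. Leaving out occluded replicate 1 gave 31 of 46, and the share over all genes was not computed for that setting. Their median log2 difference was 0.11, beside 0.07 over all genes with 1 symbol. Without occluded replicate 1 their median was 0.04, beside 0.02 over all probe sets. The sides did not overlap, with the occluded side higher, in 7 of the 46 (15.2%), against 8.31% of all genes with 1 symbol. The 7 were Sesn1, Ckap2, Fbxw7, Prdm1, Siva1, Ercc5 and Gpx1. In 0 of the 46 was the occluded side lower without overlap, against 755 of all 23332 probe sets, so few were to be found in that direction. Differences of the 7 ran from 0.04 (SE 0.08) for Ercc5 to 0.45 (SE 0.15) for Gpx1. For Ercc5 the lowest occluded array was at 8.707 and the highest contralateral array at 8.704.

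By role, the median log2 difference was 0.13 over 16 genes of arrest and growth control, 0.12 over 17 of cell death and 0.06 over 13 of DNA repair and metabolism. Without occluded replicate 1 the medians were 0.04, 0.10 and 0.03 in the same order of roles, so the arrest genes were then no longer the highest. Gpx1, a glutathione peroxidase that removes peroxides, had log2 levels of 10.22, 9.93 and 9.80 on the occluded arrays, against 9.44, 9.39 and 9.76 on the contralateral arrays, with a difference of 0.45 (SE 0.15). The lowest occluded array exceeded the highest contralateral array only narrowly. Siva1, which takes part in death receptor signalling, had a difference of 0.34 (SE 0.12), Sesn1, a stress-induced sestrin, one of 0.20 (SE 0.09), and Pltp, a lipid transfer protein, one of 0.41 (SE 0.20). Without occluded replicate 1 those of Gpx1, Siva1 and Pltp were 0.33, 0.25 and 0.19. The adjusted p of these 4 genes was 0.823.

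On the lower side were Dgka, Ppm1d, Gadd45a and Cpt1c. Dgka, a diacylglycerol kinase, was at -0.10 (SE 0.09), and Ppm1d, the phosphatase that returns the pathway to rest, was at -0.07 (SE 0.10). Gadd45a, a classical gene of growth arrest and DNA damage, was at -0.06 (SE 0.10), with log2 levels of 9.65, 9.44 and 9.71 on the occluded arrays, against 9.65, 9.60 and 9.70 on the contralateral arrays. Cpt1c, a carnitine palmitoyltransferase of neurons, was at -0.03 (SE 0.11). Without occluded replicate 1, Ppm1d was at -0.14, Gadd45a at -0.08 and Cpt1c at -0.07. The adjusted p of the 4 lay between 0.823 and 0.948.

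Regulators and relatives of p53 were likewise not called. Of 25 listed genes 19 were measured, and 0 passed limma over all probe sets, where 0% were called. An unadjusted p under 0.05 was reached by 0, against 5.28% of all probe sets. Their median log2 difference was 0.06, with 12 above 0 and 7 below, and the sides overlapped in all 19, while they did not overlap in 10.7% of all probe sets. Without occluded replicate 1 the median was 0.02. Ppp1r13b, a protein that steers p53 towards death genes, was at 0.20 (SE 0.13), the kinase Hipk2 at 0.17 (SE 0.11), and the checkpoint kinase Chek2 at 0.16 (SE 0.13). Without occluded replicate 1 these were at 0.08, 0.08 and 0.07. Atm, the kinase that signals DNA breaks, was at -0.09 (SE 0.12), Trp73, a p53 relative, at -0.07 (SE 0.09), and the deacetylase Sirt1 at -0.05 (SE 0.08).

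Rps27l also belongs to the ribosomal protein family by sequence. Of 20 other measured cytosolic ribosomal protein genes, 17 lay above 0 (85.0%), against 70.5% of all genes with 1 symbol, with a median log2 difference of 0.18, or 0.10 without occluded replicate 1. None passed limma over all probe sets, and 2 had an unadjusted p under 0.05, against 5.28% of all probe sets. The sides did not overlap in 4 of the 20 (20.0%), 3 higher and 1 lower, against 10.7% of all probe sets. Rplp0, a protein of the ribosomal stalk, was at 8.13, 8.02 and 7.95 on the occluded arrays, against 7.90, 7.77 and 7.61 on the contralateral arrays, with a difference of 0.27 (SE 0.11). Rps20 was at 0.39 (SE 0.17). Rpl4 had the largest difference, 1.03 (SE 0.20), at a mean log2 level of 5.29, which is below the 25th percentile of all probe sets, 6.60. On the lower side were Rps18 at -0.16 (SE 0.09), Rps24 at -0.14 (SE 0.14) and Rpl3l at -0.09 (SE 0.09). The adjusted p of the 6 lay between 0.805 and 0.843. Rps27, the nearest relative of Rps27l, was not analysed here, and the sources used here do not say whether probes can cross-hybridise between these genes.

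**Figure D4:**
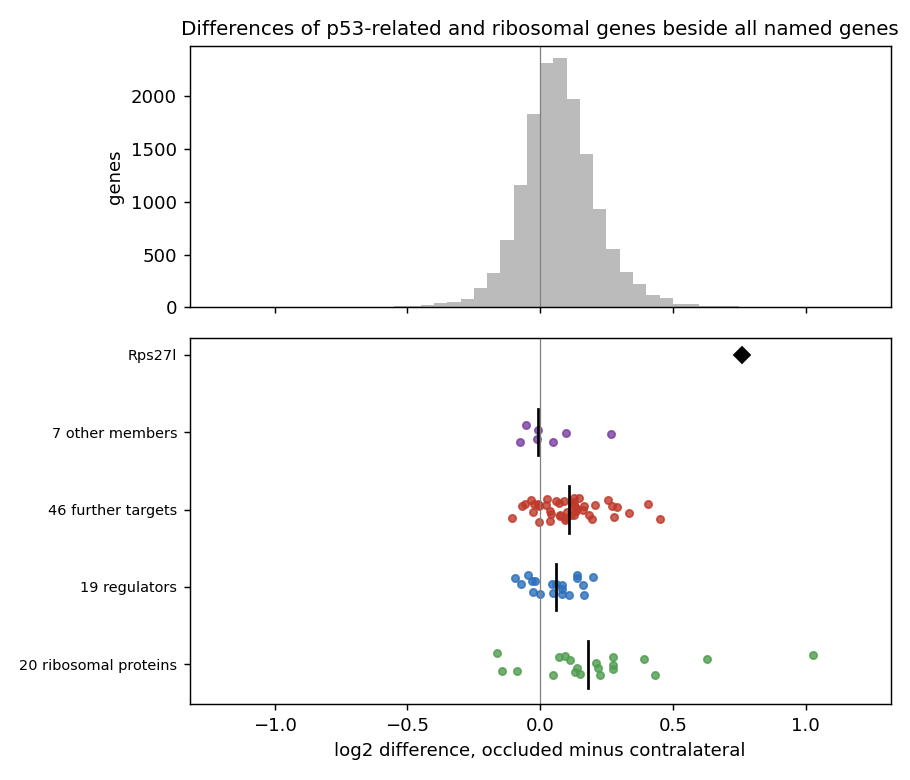
Top, the number of genes by log2 difference, occluded minus contralateral, over all 14860 genes with 1 symbol, with values beyond the axis stacked at its ends. Bottom, the same difference for Rps27l (diamond), the 7 other members, 46 further p53 targets, 19 regulators and 20 ribosomal proteins, with medians as vertical bars at -0.0072, 0.11, 0.06 and 0.18 and Rps27l at 0.76.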

How the data were processed

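The authors deposited RMA values in log2 units, computed in Expression Console for core genes, per the labels. The base of the logarithm was read from the range of the values, and no version of the software is given here. RMA normalizes between arrays and can shrink shifts shared by many genes. Scanner files were not used, and precision is limited by the number of arrays. Gene names came from the platform annotation, in which, of 23332 probe sets, 14996 carried 1 symbol, 1019 several and 7317 none. Where a gene had several, that with the highest mean was kept.

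A two-sided limma fit (version 3.58.1, R 4.3.3; lmFit and eBayes without a replicate block) compared the sides on all probe sets, with Benjamini-Hochberg adjustment and a threshold of 0.05. The fit was tested on simulated data. With 3 arrays a side the smallest p of an exact permutation test is 0.1, so none was run. Alternatives were 3 other scalings, filters on probe sets, other eBayes priors, replicate blocks, the mean over a gene's probe sets, and leaving out each array. The members and lists were chosen with earlier results of these data known. Genes of the lists were named by smallest unadjusted p (4 per direction for further targets, 3 otherwise), and the 6 genes nearest to Rps27l by profile.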

Additional observations from a re-analysis of the deposited data

How the results depend on the processing

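Over the 10 alternatives that can move it, the log2 difference of Rps27l ran from 0.65 to 0.86, with 0.65 to 0.86 over the arrays left out in turn and 0.67 to 0.68 under the 3 other scalings. The members were called in 0 of 16 alternatives. The median difference of the 7 other members ran from -0.04 to 0.05 over the arrays left out and from -0.09 to -0.04 under other scalings, that of the 46 further targets from 0.04 to 0.13 and from 0.03 to 0.04, and that of all probe sets from 0.02 to 0.08 and from -0.02 to -0.00059. Differences near 0 changed sign, and the cause was not tested. Cdkn1a was at -0.030 with median centring, -0.033 with quantile normalization and -0.031 with cyclic loess. Over the arrays left out it ran from -0.016 to 0.088, Mdm2 from -0.054 to 0.0099, Ccng1 from -0.095 to 0.0039, Bbc3 from -0.083 to 0.048, Zmat3 from -0.046 to 0.20 and Phlda3 from 0.03 to 0.41. Over all probe sets limma called 0 to 1 with an array left out, the 1 being a probe set without a symbol when contralateral replicate 2 was left out, and 1, S100a5, when only probe sets with 1 symbol were tested.

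Same-numbered arrays of the sides did not deviate together, with correlations of 0.01, 0.17 and -0.04. These values cannot decide whether equal numbers mark the same mouse, and the labels do not say, so the numbers were not taken as pairs. If each mouse gave both sides, the sides are not independent, and the main fit does not take this into account. With a fixed or random replicate block limma called 0 members and 0 of all probe sets.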
